A study of Drosophila melanogaster with 20 samples.

Results

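The response of adult Drosophila melanogaster that was common to 3 insecticidal sprays was measured against flies sprayed with the carrier solvent, ethanol. All 20 arrays of the series entered as 12 treated RNA extracts, 4 for each spray. A gene belonged to the common response when its feature carried a single gene symbol and its log2 ratio had the same sign in at least 11 of the 12 treated RNA extracts. This rule was met by 25 of the 2169 tested features with a single symbol (1.15%), out of 16896 features on the array, and by 109 of all 11526 features tested, named or not (0.946%). Spots of a symbol were averaged into a feature, whereas spots without a single symbol were counted singly. Of these 25 genes, 9 lay above the ethanol control and 16 below it, 3 had the sign in all 12 RNA extracts, and 22 had it in 11. The rule used the sign of the values, so the signs describe these genes and test nothing.

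The flies were whole adult females of the Oregon-R strain, 4 to 10 days old, kept at 16 h light to 8 h dark and 60% humidity and sprayed with 2 mL in a Potter's tower, an apparatus that lays down an even mist. The pepper extract, made with ethyl acetate from seed of Piper nigrum, was sprayed at 0.2 mg/mL, pyrethrin at 0.04 mg/mL, and the combination held the pepper extract at 0.1 mg/mL with pyrethrin at 0.004 mg/mL. Controls, and every spray, carried 99% ethanol, and RNA for each extract came from about 240 flies, 6 h after the spray. Pepper extract replicates 1 to 4 and combination replicates 2, 4, 5 and 6 were each hybridised on 2 arrays with the dyes exchanged, whereas pyrethrin replicates 1, 2, 4 and 5 were each hybridised on 1 array, with the treated RNA in Cy3. Both agents were thus at lower doses in the combination than in the single sprays, and the 3 sprays were not matched in dose.

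Flies clear plant toxins in steps. Cytochrome P450 enzymes oxidise a compound, transferases attach a sugar or glutathione to the product, and transporters export it. Pyrethrins hold open the voltage-gated sodium channels of nerve, and the amides of black pepper act on nerve and can block P450 enzymes, which is the known basis of their use with pyrethrins. Whole-fly RNA holds all tissues, so a smaller amount of a cell type and less RNA per cell cannot be told apart in the values below.

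The deposited values were log2 ratios that were read as treated over ethanol control. The labels do not state the direction. It is likely, because channel 2 was the treated RNA on every array whichever dye it carried, and because the deviations of exchanged partner arrays from the mean of their treatment and dye orientation correlated positively in 8 of 8 pairs, by 0.19 on average (0.025 to 0.41). If the values were instead Cy5 over Cy3 on every array, 17 of the 25 genes, Cyp12d1-p among them, would change direction and 2825 features would be called, since the mean of an exchanged pair is then the dye effect described below with its sign turned. Between 13953 and 16853 features were measured per array, and duplicate spots correlated by 0.17 to 0.73. The 2 reverse arrays of pepper extract replicates 3 and 4 carry titles that name another study. Leaving those 2 arrays out gave 4 called features and 19 genes of the common response.

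Over the 12 treated RNA extracts, 3 of 11526 features tested had a mean that differed from 0 at an adjusted p under 0.05 in the limma test of 1 mean, which is 0.026% of all features. Of these, 1 lay above the control (0.00868%) and 2 lay below it (0.0174%). The 1 above was Cyp12d1-p, and the 2 below were neighbouring spots without a gene symbol. Neighbouring spots were taken as duplicates for the correlation given above, so these 2 may be 1 transcript measured on 2 spots. Among all features tested, named or not, the same sign in at least 11 of 12 RNA extracts occurred in 43 above the control (0.373%) and in 66 below it (0.573%). Features with a symbol had shares of 0.415% above and 0.738% below. Spots of a symbol were averaged and the others were not, so these shares and those over all features differ in their unit. An unadjusted p under 0.05 was found for 5.65% of features, 365 on the upper side (3.17%) and 286 on the lower (2.48%). The median of all features was 0.01, and 52.8% of them lay above 0. Among features with a symbol, from which the 25 genes and the gene lists below come, the median was -0.0011 and 49.2% lay above 0.

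**Figure D1:**
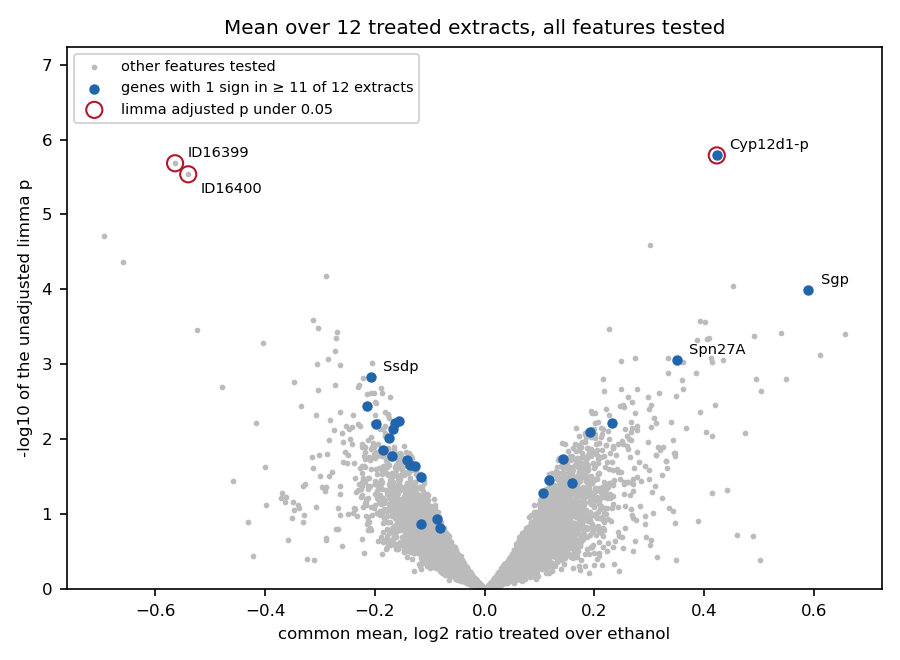
Mean log2 ratio over the 12 treated RNA extracts (horizontal axis) against the -log10 of its unadjusted limma p (vertical axis) for 11526 features. Blue points are the 25 genes of the common response, and red circles mark the 3 features that passed an adjusted p of 0.05, Cyp12d1-p at 0.42 and the unnamed ID16399 and ID16400 at -0.56 and -0.54.

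Cyp12d1-p rose. It codes for a mitochondrial cytochrome P450, and its family is known for induction by plant toxins and by synthetic insecticides. In pepper extract replicates 1 to 4 its log2 ratios to the control were 0.54, 0.37, 0.29 and 0.37. In combination replicates 2, 4, 5 and 6 they were 0.44, 0.13, 0.69 and 0.68, and in pyrethrin replicates 1, 2, 4 and 5 they were 0.36, 0.55, 0.27 and 0.36. Every treated RNA extract was thus above its control, the lowest was combination replicate 4, and the 3 sprays overlapped. The mean was 0.42 ± 0.06 on the log2 scale (SE of the limma fit, n = 12, SD 0.17), a 1.34-fold higher level. Its adjusted p in the limma test was 0.0112. The mean was 0.39 over the pepper extract replicates, 0.48 over the combination and 0.39 over pyrethrin, and no difference among sprays was detected (limma F test, unadjusted p = 0.761). On 8 arrays with the treated RNA in Cy3 of the exchanged pairs the mean was 0.66, and on the 8 partner arrays in Cy5 it was 0.21. Of the Cy5 arrays, those of pepper extract replicate 4 and of combination replicates 2 and 4 were just below 0, at -0.02, -0.05 and -0.04, and the 8 Cy3 arrays ran from 0.29 to 0.95. Without the pyrethrin arrays, which have no dye partner, the mean of 8 RNA extracts was 0.44 with an adjusted p of 0.188. The genome carries a nearly identical copy, Cyp12d1-d, and a spotted cDNA may not separate the 2 transcripts.

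**Figure D2:**
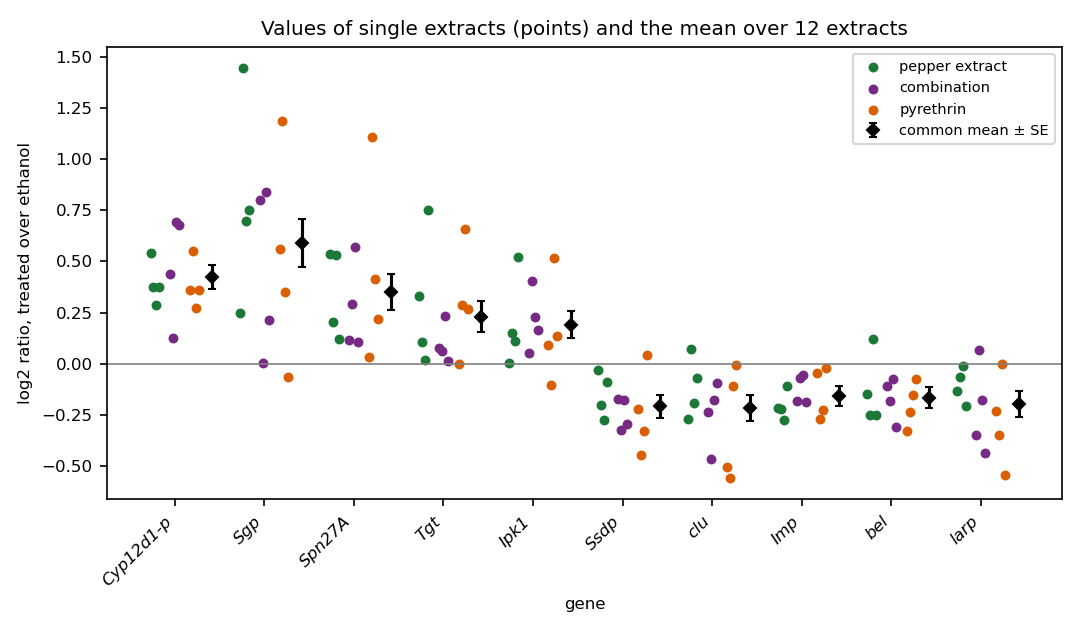
Log2 ratio (treated over ethanol control, vertical axis) in each of the 12 treated RNA extracts for the 5 genes above and the 5 below the control with the smallest limma p, by spray. Each point is 1 RNA extract and each diamond with its bar the mean ± SE over 12, from 0.59 for Sgp to -0.21 for clu. The 3 sprays overlap in each of the 10 genes.

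Sgp, which codes for a fatty acyl-CoA reductase, an enzyme that makes fatty alcohols, had the largest mean of the 25 genes but also a wide spread. Its log2 ratios were 0.25, 1.45, 0.70 and 0.75 in the pepper extract replicates. In the combination they were 0.80, 0.0028, 0.84 and 0.22, and after pyrethrin 0.56, 1.18, 0.35 and -0.07. The 1 RNA extract below the control was pyrethrin replicate 5, and combination replicate 4 lay at the control level. The mean was 0.59 ± 0.12 (SE, n = 12, SD 0.46), a 1.51-fold level that did not pass the threshold (limma adjusted p = 0.131). It passed with no dye correction (limma adjusted p = 0.0435), with the ethanol number as a block (0.0303) and with the 20 arrays fitted singly with a dye term (0.0111). The ethanol number is that of the control in the array titles, which reuse it across sprays. The block correlation with the ethanol number was -0.098, against 0.16 in the main test. The fit of 20 arrays took the 2 arrays of an exchange as separate observations, although there were 12 treated RNA extracts. It had the treated RNA extract as its block, with 1 correlation of 0.20 for all features, and no control block.

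The other enzymes above the control had smaller means, and none passed the threshold. Ipk1 codes for inositol pentakisphosphate kinase, which makes inositol hexakisphosphate. Its log2 ratios were 0.0030, 0.15, 0.11 and 0.52 in the pepper extract replicates, 0.05, 0.40, 0.23 and 0.17 in those of the combination, and 0.09, -0.10, 0.52 and 0.14 in those of pyrethrin. The highest values came from pepper extract replicate 4 and pyrethrin replicate 4, the 2 RNA extracts with the lowest correlation of duplicate spots, at 0.27 and 0.19. The mean was 0.19 ± 0.06 (limma adjusted p = 0.689), and without those 2 RNA extracts, a setting that was not planned, it was 0.12. Pcyt1, the phosphocholine transferase that sets the pace of phosphatidylcholine synthesis, had a mean of 0.14 with values from -0.04 to 0.44 around a median of 0.09. Dhdds, which makes the dolichol precursor that carries sugars for protein glycosylation, had a mean of 0.11 with values from -0.04 to 0.34.

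A pair of metabolic enzymes lay below the control, neither past the threshold. Nadsyn, the last enzyme of NAD synthesis, had a mean of -0.17 with values from -0.51 to 0.07 and a median of -0.12. CG5326, of the family of fatty acid elongases, had a mean of -0.12 with values from -0.43 to 0.56. Without combination replicate 6 the mean was -0.18, without the pyrethrin arrays of control extract 3 it was -0.07, and over the 8 exchanged RNA extracts it was -0.06. Combination replicate 6 gave its 1 positive value, so the combination mean of CG5326 was 0.03, and CG5326 was the 1 gene of 25 whose 3 treatment means were not of 1 sign.

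Spn27A, a secreted serpin that restrains the melanisation cascade by holding back the activation of prophenoloxidase, was above the control in all 12 RNA extracts. Its log2 ratios were 0.54, 0.21, 0.53 and 0.12 in the pepper extract replicates and 0.12, 0.29, 0.57 and 0.11 in the combination replicates. In the pyrethrin replicates they were 0.03, 1.11, 0.41 and 0.22. Pyrethrin replicates 1 and 2 were thus the lowest and the highest of all 12. The mean was 0.35 ± 0.09 (SE, n = 12), a 1.27-fold level (limma adjusted p = 0.305), and with the ethanol number as a block, at a block correlation of -0.098, the adjusted p was 0.0469. The exchanged pairs did not give 1 sign for it, with a mean of 0.68 on the arrays with treated RNA in Cy3 and -0.06 on their Cy5 partners. Rpn6, a lid subunit of the proteasome, lay on the other side with a mean of -0.19 and values from -0.61 to 0.33, and its mean over the 8 exchanged RNA extracts was -0.12.

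Proteins that bind or process RNA made up 9 of the 25 genes, 8 of them below the control, a grouping that was made after the values were seen and has no test. Of all 25 genes 16 lay below the control, and the share of such RNA genes among all tested symbols was not counted. The means of these 9 genes ran from -0.21 to 0.23, and none passed the threshold. The 4 with the smallest p among the 8 were clu, Imp, bel and larp, which act on messenger RNA in the cytoplasm.

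The clu product binds messages for mitochondrial proteins and sits near mitochondria. The log2 ratios of clu were -0.27, 0.07, -0.19 and -0.07 in the pepper extract replicates, -0.23, -0.47, -0.18 and -0.09 in those of the combination, and -0.50, -0.56, -0.11 and -0.0069 in those of pyrethrin. Pepper extract replicate 2 was the 1 value above the control, and the mean was -0.21 ± 0.06 (SE, n = 12, limma adjusted p = 0.550). Imp, which binds and localises messages in germline and nerve cells, was below the control in all 12 RNA extracts. Its values were -0.21, -0.22, -0.27 and -0.11 in the pepper extract replicates, -0.18, -0.07, -0.05 and -0.19 in those of the combination, and -0.05, -0.27, -0.23 and -0.02 in those of pyrethrin. It had the narrowest range of the 5 genes below the control that are given in full, from -0.27 to -0.02, with a mean of -0.16 ± 0.05 (limma adjusted p = 0.664).

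The bel product is a DEAD-box RNA helicase that is needed for translation and fertility. Its log2 ratios were -0.15, -0.25, 0.12 and -0.25 in the pepper extract replicates, -0.11, -0.18, -0.08 and -0.31 in those of the combination, and -0.33, -0.23, -0.15 and -0.07 in those of pyrethrin. Pepper extract replicate 3 was above the control, and the mean was -0.16 ± 0.05 (limma adjusted p = 0.664). The La-related protein larp binds the cap-proximal part of messages and poly(A)-binding protein. Its values were -0.13, -0.06, -0.01 and -0.21 in the pepper extract replicates, -0.34, 0.07, -0.18 and -0.43 in those of the combination, and -0.23, -0.35, -0.0017 and -0.54 in those of pyrethrin. A pair of its RNA extracts lay at the control level, combination replicate 4 lay above it, and the mean was -0.20 ± 0.06 (limma adjusted p = 0.667).

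The RNA-binding genes with a nuclear role, or with a role in message decay, had means from -0.17 to -0.08. Nopp140, a chaperone of the nucleolus, had a mean of -0.17 with values from -0.42 to 0.10. Pep, a protein of the ecdysone-induced puffs of polytene chromosomes, had a mean of -0.13 with values from -0.30 to 0.11. PAN3, the regulatory subunit of a deadenylase that shortens poly(A) tails, had a mean of -0.09 with values from -0.28 to 0.22. Arglu1, a factor tied to splicing, had a mean of -0.08 with values from -0.26 to 0.28, and it was the 16th gene below the control by p, 1 beyond the 15 per direction that the naming rule allowed.

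Tgt was the 1 gene of the RNA group above the control. It codes for the subunit of tRNA-guanine transglycosylase that puts queuine into the anticodon of certain transfer RNAs. Its log2 ratios were 0.33, 0.10, 0.02 and 0.75 in the pepper extract replicates, 0.08, 0.06, 0.23 and 0.02 in those of the combination, and -0.00046, 0.29, 0.66 and 0.27 in those of pyrethrin. The combination values were all at or below 0.23, and pepper extract replicate 4 and pyrethrin replicate 4 were the highest. These are again the 2 RNA extracts with the lowest correlation of duplicate spots. The mean was 0.23 ± 0.07 (limma adjusted p = 0.664), and without those 2 RNA extracts it was 0.14.

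Ssdp, a cofactor that binds single-stranded DNA and acts with Chip in transcription of wing and other patterning genes, had the smallest p of the genes below the control. Its log2 ratios were -0.03, -0.20, -0.28 and -0.09 in the pepper extract replicates, -0.17, -0.32, -0.18 and -0.30 in those of the combination, and -0.22, -0.44, -0.33 and 0.04 in those of pyrethrin. Pyrethrin replicate 5 was the 1 value above the control, and the mean was -0.21 ± 0.05 (limma adjusted p = 0.404).

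Genes of the cell surface and of membrane traffic included Sec3, an exocyst subunit that tethers vesicles at the plasma membrane, with a mean of 0.12 and values from -0.03 to 0.37. The other 3 lay below the control. The atypical cadherin kug, which moves the follicle epithelium of the ovary, had a mean of -0.17 with values from -0.57 to 0.18. Its lowest values were those of pyrethrin replicate 4 and pepper extract replicate 4, and without these 2 RNA extracts the mean was -0.11. The clathrin adaptor lap, which recycles synaptic vesicles, had a mean of -0.14 with values from -0.45 to 0.01. The immunoglobulin-superfamily protein plum, which is needed for pruning of nerve cell processes, had a mean of -0.14 with values from -0.40 to 0.07. CG31296, with a mean of 0.16, and CG8517, with a mean of -0.12, have no role given here. CG8517 was represented by 16 spots, of which 12 had a mean below 0, over a range from -0.41 to 0.28, and in the other 24 genes all spots had the sign of the gene.

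**Figure D3:**
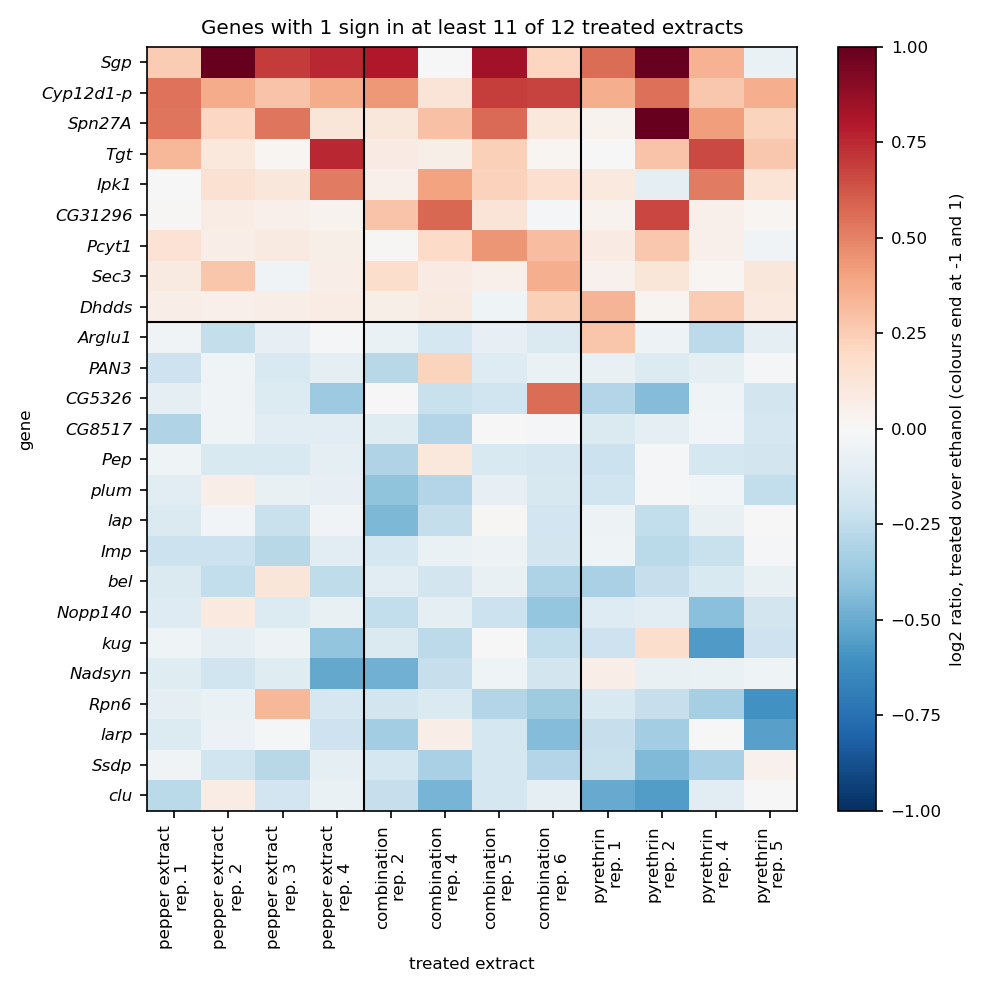
Log2 ratio (treated over ethanol control, colour scale) of the 25 genes of the common response, 1 row per gene, in the 12 treated RNA extracts, 1 column each, grouped by spray. Colours end at -1 and 1. The 22 cells of the opposite sign are spread over the 3 sprays, 6 in pepper extract replicates, 8 in the combination and 8 in pyrethrin.

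Across the 25 genes, the mean log2 ratio ran from 0.11 to 0.59 in the 9 genes on the upper side (median 0.19) and from -0.21 to -0.08 in the 16 on the lower side (median -0.16). The SD of a gene over the 12 RNA extracts was 0.09 to 0.46, and the median SD of all features was 0.26. The 9 genes above the control had a median of 0.20 over the pepper extract replicates, of 0.24 over the combination and of 0.19 over pyrethrin. The 16 below it had medians of -0.12, -0.19 and -0.17 in the same order of sprays. Over all features the 3 medians were 0.0043, 0.01 and -0.0055. In all, 24 of the 25 genes kept 1 sign in all 3 treatment means. The rule of 1 sign nearly fixes this count and the sides of the medians, so they test nothing.

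No feature differed in size among the 3 sprays, as 0 of 11526 passed an adjusted p of 0.05 in the limma F test (0%), and 979 (8.49%) had an unadjusted p under 0.05. None of the 25 genes had an unadjusted p under 0.05 in that test, where their values ran from 0.0997 to 0.961. The smallest was that of Rpn6, at 0.0997. Its values were -0.10, -0.06, 0.33 and -0.17 in the pepper extract replicates, -0.18, -0.14, -0.30 and -0.35 in those of the combination, and -0.15, -0.23, -0.33 and -0.61 in those of pyrethrin. The means were -0.00090, -0.24 and -0.33, and pepper extract replicate 3 alone lay above the control. Nadsyn, at 0.260, had means of -0.24, -0.23 and -0.03 in the same order of sprays, so its pyrethrin replicates lay nearest to the control. CG5326, at 0.309, had means of -0.16, 0.03 and -0.24. The other two of the 5 smallest were plum, at 0.353 with means of -0.05, -0.23 and -0.12, and Nopp140, at 0.354 with means of -0.06, -0.24 and -0.21. In both, the pepper extract had the mean nearest to 0. With 4 RNA extracts per spray and unmatched doses these values do not show that the sprays acted alike, and the rule of 1 sign across all sprays itself favours genes with small differences among them, so the count over the 25 genes tests nothing.

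A dye effect, the part of a ratio that follows which RNA carried which dye, was estimated per feature from the 8 exchanged pairs. Its SD over all features was 0.20 on the log2 scale, and its size was above 0.2 in 29.0% of features. It exceeded the common mean in size in 4 of the 25 genes and did not in 21, and it had the sign of the common mean in 19 genes and the other sign in 6. The means over arrays with treated RNA in Cy3 and over their Cy5 partners had the same sign in 20 of the 25 genes. The other 5 were Spn27A, Nopp140, kug, Dhdds and CG8517. For Nopp140 the Cy3 mean was 0.03 and the Cy5 mean -0.33, and for kug they were 0.02 and -0.33. Of the 5 genes below the control given in full, 4 had most of their shift on the Cy3 arrays. The Cy3 and Cy5 means were -0.37 and -0.03 for Ssdp, -0.34 and -0.02 for clu, -0.29 and -0.03 for Imp, and -0.32 and -0.01 for larp, while bel had -0.21 and -0.09. Their dye effects ran from -0.17 for Ssdp to -0.06 for bel, and the part of the dye in their pyrethrin values, which have no Cy5 partner, rests on the correction. Counted over single arrays with no correction, the genes had their sign in 12 to 18 of 20 arrays, Sgp in 18 and Cyp12d1-p in 17.

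**Figure D4:**
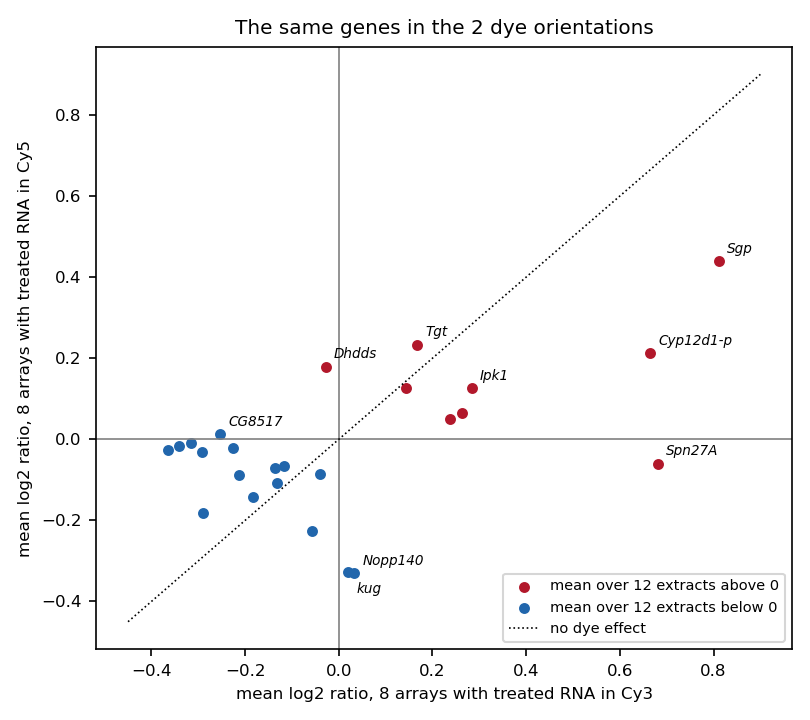
Mean log2 ratio (treated over ethanol control) of the 25 genes over the 8 arrays of the exchanged pairs with treated RNA in Cy3 (horizontal axis) and over their 8 partners with treated RNA in Cy5 (vertical axis), where the dotted line marks equal means. Sgp and Cyp12d1-p lie in the quadrant above 0 on both axes, while Spn27A at 0.68 and -0.06, Nopp140, kug, Dhdds and CG8517 fall in quadrants of opposite sign.

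Of the genes just outside the rule, with the sign in 10 of 12 RNA extracts, only those with the smallest limma p per direction are given. Picking by p favours large means, so the sizes below do not stand for all genes just outside the rule. Above the control the genes given were CG1344 with a mean of 0.20, the caspase Strica with 0.20, and CG17002 with 0.18. Below it they were CG31294 with -0.26 over 11 measured RNA extracts, CG15711 with -0.24, and CG5674 with -0.20.

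Besides these genes, 84 features without a single gene symbol had the same sign in at least 11 of 12 RNA extracts. A neighbouring spot was tested for 82 of them, it had a mean of the same sign for 79, and 22 neighbours also met the 11 of 12. As neighbouring spots were taken as duplicates, these counts may hold the same transcript more than once. The features numbered ID16399 and ID16400, neighbouring spots on the array, were the 2 that fell. Both lay below the control in all 12 RNA extracts and on 20 of 20 arrays. The log2 ratios of ID16399 were -0.62, -0.35, -0.63 and -0.29 in the pepper extract replicates, -0.63, -0.12, -0.87 and -0.63 in those of the combination, and -0.27, -0.51, -0.73 and -1.16 in those of pyrethrin. Those of ID16400 were -0.23, -0.39, -0.71 and -0.44, then -0.56, -0.26, -0.87 and -0.42, and then -0.34, -0.65, -0.52 and -1.17. Pyrethrin replicate 5 was the lowest in both features, and the 3 sprays overlapped. Their means were -0.56 ± 0.08 and -0.54 ± 0.08 (SE), each with a limma adjusted p of 0.011. On the exchanged pairs ID16399 had means of -0.56 in Cy3 and -0.47 in Cy5, and ID16400 had -0.49 and -0.48. Over the 8 exchanged RNA extracts alone the means were -0.52 and -0.48, each with an adjusted p of 0.179. Above the control, ID13379 had a mean of 0.30 ± 0.05 in 12 of 12 RNA extracts (limma adjusted p = 0.058), and ID13512 had 0.45 ± 0.09 in 11 of 12 (limma adjusted p = 0.131).

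The pathways of toxin handling and stress were read from 41 gene lists, of which 39 had tested genes and 2, the carboxylesterases and the ABC transporters, had none. A called gene occurred in 1 list, the P450 enzymes. Of the 4 tested P450 genes 3 were on the upper side, with a list median of 0.04, and beside Cyp12d1-p the values were 0.06 for Cyp4g15, 0.01 for Cyp4ac1 and -0.05 for Cyp6u1. The glutathione S-transferases had 2 of 3 genes on the upper side, with a list median of 0.0037. The UDP-glucuronosyltransferases had 3 of 5 above it and a median of 0.01, with Ugt301D1 at 0.17 and Ugt50B3 at 0.10. None of these transferases passed the threshold.

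Antioxidant enzymes were the 1 list with all its genes above the control, 6 of 6, and a list median of 0.08, with none past the threshold, but with the values read as Cy5 over Cy3 the count was 3 of 6 and the list median -0.02. Their means ran from 0.01 for Prx3, a mitochondrial peroxiredoxin, to 0.11 for Sod2, the mitochondrial superoxide dismutase. TrxT, which is counted among them, was also in the list of male accessory gland and testis markers. Heat shock proteins and chaperones had 8 of 14 genes on the upper side, with a list median of 0.01, with Hsp68 at 0.32 and Hsc70-2 at 0.27. The proteasome and ubiquitin list had 15 of 27 genes on the upper side, with a list median of 0.01, and Rpn6 lay on the other side of 0 from most of its list.

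RNA-related lists lay close to the median of all features. The list of rRNA processing and nucleolus, which holds Nopp140 and bel, had 7 of 11 genes below the control and a median of -0.01, with Nop60B at -0.16 and Nop10 at -0.15. The splicing list had 4 of 14 genes on the upper side, with a list median of -0.02, with B52 at -0.12. The translation factors had 9 of 15 genes on the upper side, with a list median of 0.03, although Fmr1, the fragile X RNA-binding protein, had a mean of -0.34. None of the genes of these 3 lists passed the threshold.

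Other lists showed small shifts of their medians, and no gene in them passed the threshold. Single genes ranged more widely. The highest mean was 0.41 in the male accessory gland and testis list, 0.39 in ER translocation and glycoprotein folding, and 0.31 in ion channels. The lowest mean among the developmental transcription factors was -0.28. The 3 mitochondrial ribosomal proteins and the 4 hemocyte markers were the lists with all genes below the control, with medians of -0.11 and -0.06, which became 0.08 and 0.04 when read as Cy5 over Cy3. Over the pepper extract, combination and pyrethrin the mitochondrial ribosomal medians were -0.13, -0.02 and 0.01. The hemocyte medians were -0.11, -0.02 and -0.05 in the same order. Oxidative phosphorylation had 4 of 11 genes on the upper side, with a list median of -0.05. Its median was -0.07 over the pepper extract and -0.14 over the combination, but 0.05 over pyrethrin. That list held COX7C, ND-B8, ND-13A and ND-51, beside Cyt-b5-r and the genes with an L suffix, UQCR-11L, COX7AL, SdhBL, COX6AL, SdhCL and ATPsynGL. Glycolysis and sugar metabolism had 4 of 7 and a median of 0.11, over Pgm2b, Gpo3, Gpdh3, Treh, mmy, fbp and Tps1. Neither list thus stands for its whole pathway. The ovary and maternal list had 5 of 10 genes on the upper side, with a list median of -0.01, and the male accessory gland and testis markers had 3 of 7 and a median of -0.01. Ratios hold no level, so whether such markers were present in the labelled females was not tested. Over the 39 lists the medians ran from -0.11 to 0.11, with 25 above 0 and 14 below. Read as Cy5 over Cy3, a reading that was added for the lists after the data were seen, the medians ran from -0.17 to 0.12, with 22 above 0 and 17 below, and 23 of the 39 changed sign. The heat shock proteins and chaperones then had 2 of 14 genes on the upper side and a list median of -0.11, and the P450 enzymes 1 of 4 and -0.16.

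**Figure D5:**
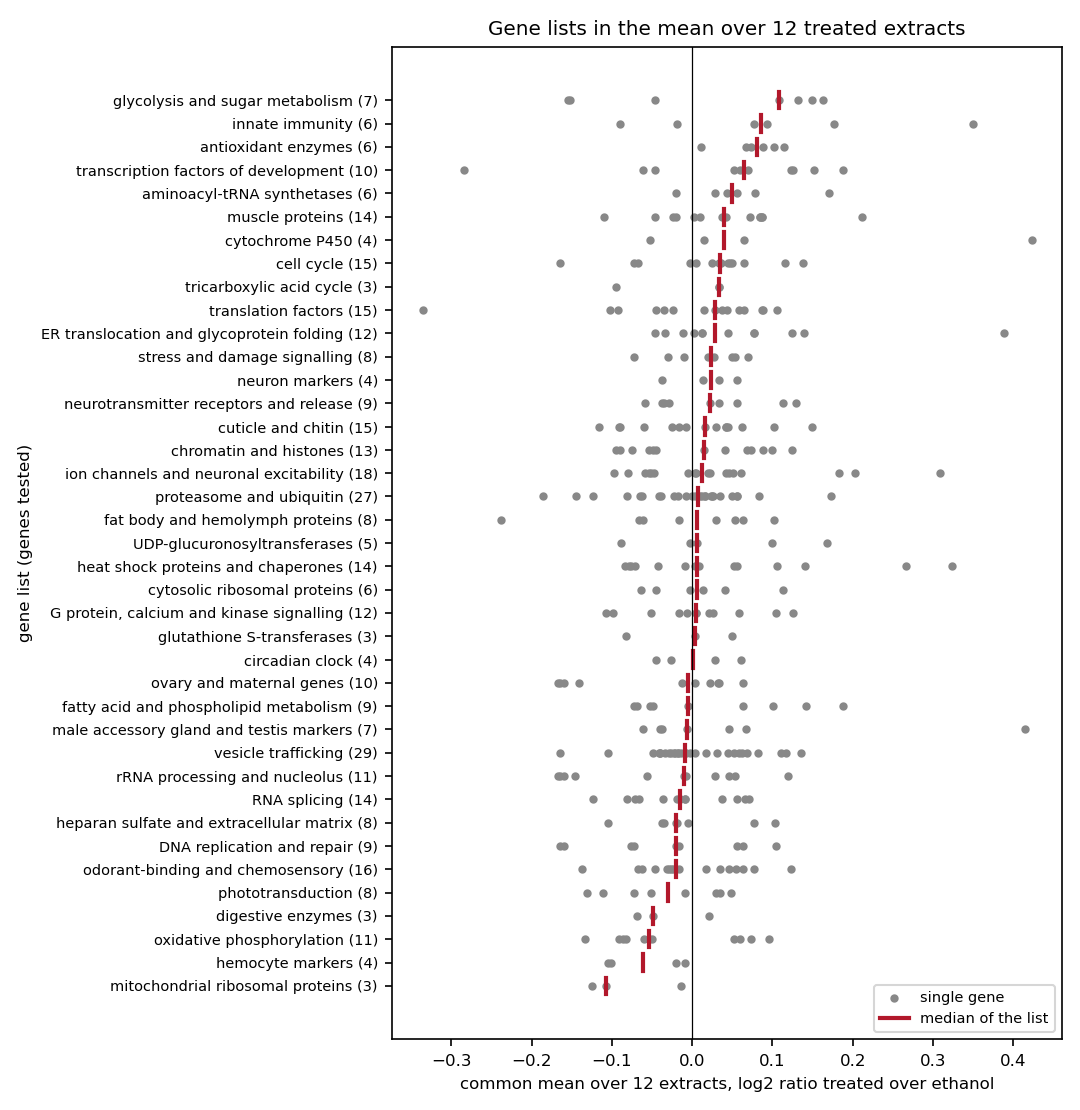
Mean log2 ratio over the 12 treated RNA extracts (horizontal axis) of every tested gene in the gene lists, 1 row per list, with each point a gene and each bar the list median. The medians lie between -0.11 and 0.11, and Cyp12d1-p, at 0.42 in the P450 row, is the 1 gene of these lists that passed an adjusted p of 0.05.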

How the data were processed

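RNA from sprayed flies and ethanol controls was direct-labelled (80 µg per sample) and hybridised on 2-colour spotted arrays. The deposited values are the authors' ratios on a log2 scale, 1 per feature; neither log base nor normalization is given in the sources used here. The base was read from the values, whose largest size, 14.295, exceeds the natural logarithm of a 16-bit signal, 11.0903. Missing values made up 5.36%.

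GEO's platform annotation gave a single symbol to 5666 spots (2377 symbols, all matched in a RefSeq gene table), several to 152 and none to 11078. Array medians were subtracted, spots of 1 symbol averaged and exchanged arrays averaged into 1 replicate. The dye effect of each feature, from at least 4 of 8 exchanged pairs, was subtracted from the pyrethrin arrays. Its error is shared by the 4 pyrethrin extracts. By the source names there were 10 control extracts, and the pyrethrin extracts share 2 of them. Array titles instead number the ethanol controls 1 to 4 and reuse these numbers across sprays, without saying whether the RNA is the same. The setting with the ethanol number as a block takes equal numbers as 1 control. Controls shared across sprays could bear on a common sign, which was not tested. Features measured in at least 3 of 4 extracts of every spray were tested with limma 3.58.1 in R 4.3.3 (lmFit, eBayes, two-sided) for 1 mean against 0, with control extract as a random block (duplicateCorrelation, statmod 1.5.0, correlation 0.16), and with the F test for differences among sprays. Benjamini-Hochberg adjustment ran over all 11526 features, with 0.05 as the threshold. Means over all treated extracts and every SE are those of the limma fit. That SE draws on the variance of all features and on the block correlation, so it does not follow from the SD and n alone. The procedure was run on simulated data in which every extract was drawn independently. Shared controls and the control block were therefore not tested there.

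The members and lists were chosen with earlier results of these data known. Up to 15 genes per direction were named by p, the first 5 with every value, with the 3 per direction just outside the rule, at most 2 unnamed features per direction, and per list the largest few. The number of arrays limits precision. The labels give separate replicate numbers but no separate cages or spray days, so p-values measure the spread between these extracts. In all, 30 settings were tried, among them ratio direction, dye correction, blocks, filters, scaling, weights and leaving out extracts. Leaving out the 2 RNA extracts with low duplicate agreement was not planned.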

Additional observations from a re-analysis of the deposited data

Results flagged for a closer look

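In each group of 4 RNA extracts, the gap of the highest or lowest value to its neighbour was divided by the range of the group and set against Dixon's critical value, which chance passes in about 1 of 20 groups. Over 104 such groups 2 passed. The cadherin gene kug was at -0.39 in pepper extract replicate 4, while the other 3 pepper extract replicates lay between -0.09 and -0.04. CG31296 was at 0.67 in pyrethrin replicate 2, while the other 3 pyrethrin replicates lay between 0.02 and 0.05.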

How the results depend on the processing

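The main count of 3 called features moved to 2825 with the values read as Cy5 over Cy3, which by construction turns the mean of an exchanged pair into the dye effect, 9 with no dye correction, 5 with no control block, 34 with the ethanol number as a block, 11 with a mean per treatment, 5 over features measured in all 12 RNA extracts, 5 with arrays scaled to equal spread, 5 with every spot on its own and 9 with the 20 arrays fitted singly, with a dye term and the treated RNA extract as the block. It was 0 with the 8 exchanged RNA extracts alone, where 802 had an unadjusted limma p under 0.05, and 3 or 4 on leaving out 1 RNA extract. The 25 genes became 338 read as Cy5 over Cy3, 67 with no dye correction, 217 at 7 or more of the 8 exchanged RNA extracts, 41 after scaling, 59 and 77 without the pyrethrin arrays of control extracts 3 and 4, 58 without the 2 RNA extracts with low duplicate agreement, and 34 to 52 on leaving out 1 RNA extract, where fewer RNA extracts must have the sign. Without pyrethrin replicates in turn no control block could be estimated. Differences among sprays numbered 270 read as Cy5 over Cy3, 1 with no dye correction and 1 after scaling, against 0 by limma in the other settings. The same replicate number did not pair samples across sprays (correlations of 8 pairs -0.33 to 0.15). The replicate block gave 30 calls, with Sgp (limma adjusted p 0.0299) and Spn27A (0.0386) among them, and 0 differences. Block correlations were -0.18 for the replicate block and -0.098 for the ethanol number, against 0.16 in the main test. The calls of those 2 settings thus rest on a correlation of the other sign. Read as Cy5 over Cy3, 25 named results turned direction: Cyp12d1-p -0.21, Sgp -0.15, Spn27A -0.41, Ssdp 0.18, clu 0.20, Imp 0.12, bel 0.078, larp 0.19, Ipk1 -0.065, Rpn6 0.17, Pcyt1 -0.078, Pep 0.020, CG8517 0.13, CG31296 -0.11, PAN3 0.021, CG5326 0.031, Arglu1 0.010, Strica -0.18, CG1344 -0.10, CG17002 -0.092, CG15711 0.14, ID13379 -0.17, ID13512 -0.13, ID16399 0.093 and ID16400 0.058. In the other settings, 0 of 700 values of the 25 genes turned sign, 1 lost and 6 gained the call. The causes of the other moves were not tested.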
